A study of Mus musculus with 4 samples.

Results

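Arginine is the shared substrate of competing enzymes in tumour myeloid cells, and 6 genes that import, split, oxidise, rebuild or pass on its products were followed here: Slc7a2, Arg1, Arg2, Nos2, Ass1 and Odc1. The 6 genes were chosen by name among the 27998 features of each matrix, and all 6 were measured in all 4 libraries. They were described by treatment and by groups of cells gated on raw UMI counts (unique molecular identifiers, 1 per captured RNA molecule).

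The cells came from orthotopic, syngeneic mammary tumours grown from the MT4788 mouse breast cancer line in wild-type FVB mice, taken on day 4 and enriched for CD45, the marker of blood-derived cells. Each of 4 tumours had 1 treatment and gave 1 10x Genomics 3' library: saline with PBS (control), saline with phenformin, poly I:C with PBS, and poly I:C with phenformin (the combination). Phenformin is a biguanide that inhibits mitochondrial complex I, and poly I:C mimics viral double-stranded RNA and activates Toll-like receptor 3. A single library stood for each treatment and the treatments could not be tested against each other, so every interval below covers counting error only, and a difference between 2 libraries cannot be told apart from a difference between 2 tumours.

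Slc7a2 is a transporter that carries arginine into the cell. Arg1, in the cytosol, and Arg2, in mitochondria, split arginine into urea and ornithine, and Odc1 turns ornithine into putrescine, the first step of polyamine synthesis. Nos2, the inducible nitric oxide synthase, oxidises arginine to nitric oxide and citrulline, and Ass1 starts the rebuilding of arginine from citrulline. In mouse macrophages Arg1 is the textbook marker of interleukin 4 and interleukin 13 signalling, and is also induced in hypoxic tumour macrophages. Nos2 is the textbook marker of interferon gamma and microbial signals.

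In GRCm38 with the GENCODE vM21 annotation, all 6 are protein-coding genes: Arg1 (ENSMUSG00000019987) lies at chr10:24915221-24927484 on the minus strand, Nos2 (ENSMUSG00000020826) at chr11:78920787-78960254, Arg2 (ENSMUSG00000021125) at chr12:79130777-79156301, Odc1 (ENSMUSG00000011179) at chr12:17544794-17551505, Slc7a2 (ENSMUSG00000031596) at chr8:40862396-40922308 and Ass1 (ENSMUSG00000076441) at chr2:31470207-31520672, the last 5 on the plus strand. Arg1 and Arg2 encode the same activity in different compartments. Their coding sequences, of 969 and 1062 bases, were identical at 64.9% of 958 aligned bases, and the longest stretch that both transcripts share was 12 bases. The stretch of 63 bases around the manganese-binding motif of the active site is shown for Arg2, the arginase that is set apart by cell type below; capitals mark the 5 codons of the motif, codons 143 to 147.
Arg2: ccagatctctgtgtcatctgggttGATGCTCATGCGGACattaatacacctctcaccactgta

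After cells with under 200 genes or at least 20% mitochondrial UMIs were left out, 6095, 5453, 6619 and 8268 cells remained in the control, phenformin, poly I:C and combination libraries, in that order here and in every list of 4 values below, with 57332308 to 76070132 UMIs per library. The macrophage gate (at least 3 UMIs of Csf1r, Cd68 and Adgre1) held 2030, 2268, 2641 and 2759 cells, and all 12 macrophage markers were above 20 UMIs per 1000000 (counts scaled to the gate's total, CPM) in the control gate. Its summed macrophage marker level was 9249, 11860, 23816 and 23216 CPM, so the cells in the gate were not alike between libraries: 33.7%, 37.4%, 58.6% and 63.7% of them had at least 50 UMIs of C1qa, C1qb and C1qc. Between 37 and 55 barcodes of a library also occurred in another one. Although the cells had been enriched for CD45, 531, 298, 680 and 577 kept cells carried the keratin RNA of tumour cells. The monocyte gate (at least 2 Ly6c2 UMIs and under 5 C1q UMIs) went against its label: 42.4%, 40.2%, 52.5% and 57.8% of its cells had at least 2 Cd3 UMIs, as T cells do, or at least 3 Siglech UMIs, as plasmacytoid dendritic cells do (whole gate 1093, 1062, 1391 and 1409 cells). Its values are given without those cells, which left 630, 635, 661 and 595, unless the whole gate is named. Of these, 63.3%, 74.2%, 70.3% and 64.5% also passed the macrophage gate, so they are not a separate group from it. Values for the 231, 164, 196 and 211 that did not are given beside them. A UMI of the monocyte marker Ccr2 was found in 60.3%, 55.0%, 28.0% and 34.1% of the 630, 635, 661 and 595 cells. The cells of this gate were thus not alike between libraries either. Of the neutrophil gate (at least 5 S100a8 and S100a9 UMIs and at least 1 of Csf3r or Cxcr2; 218, 178, 211 and 280 cells), 11.9%, 11.2%, 29.4% and 16.8% also passed the macrophage gate. Neutrophil values are therefore given for cells with no macrophage-gate and no Cd3 UMI, which left 111, 99, 82 and 134 cells.

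Most of the Arg1, Nos2 and Slc7a2 RNA in these CD45-enriched libraries was in the macrophage gate. The gate held 92.3%, 93.6%, 96.0% and 90.6% of all Arg1 UMIs of a library, and 85.5%, 94.5%, 95.5% and 90.4% of all Nos2 UMIs. For Odc1 the same share was 22.6% to 28.1%. Arg2 was spread between macrophage-gate and neutrophil-gate cells. Ass1 was also found outside the macrophage gate, with 42.7, 50.3, 38.4 and 43.4 CPM in the T cell gate.

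**Figure D1:**
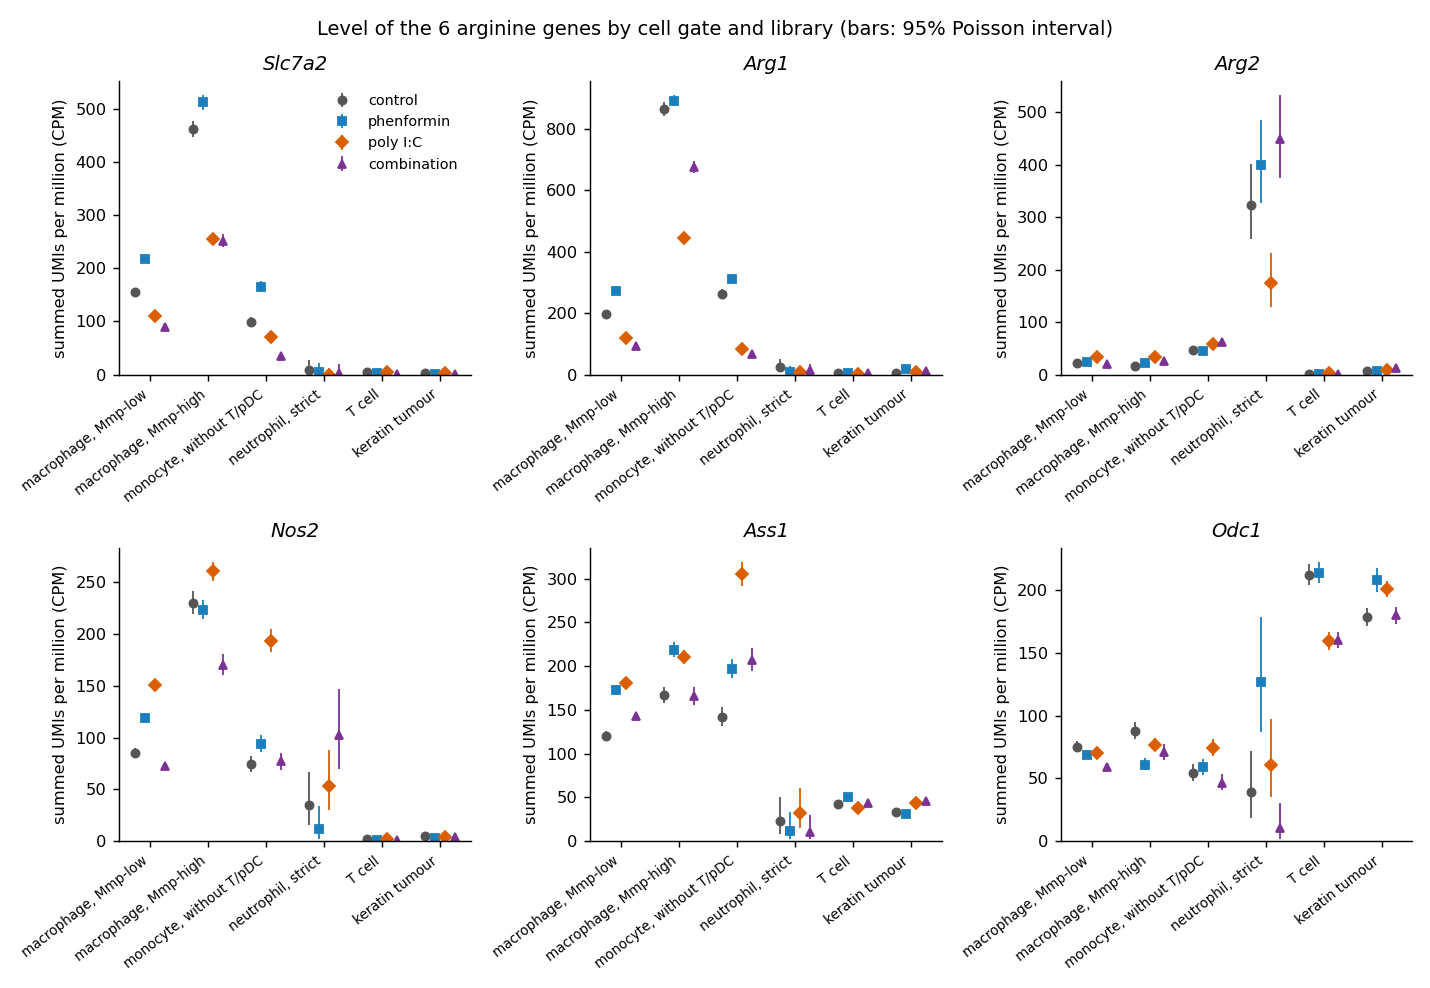
Level of each of the 6 genes, as UMIs of the gene per 1000000 UMIs summed over the cells of a gate (CPM), in 6 gates; each marker is 1 library and bars are exact 95% Poisson intervals, which cover counting error only. Arg1, Nos2 and Slc7a2 are highest in Mmp-high macrophage-gate cells, Arg2 in neutrophil-gate cells, and Odc1 in T cell and keratin tumour cells.

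Slc7a2, the arginine importer, was higher in the phenformin library and lower in both poly I:C libraries. Its level in macrophage-gate cells was 254 CPM in control, 317 with phenformin, 158 with poly I:C and 123 with the combination. The combination library was the lowest and the phenformin library the highest, and the 95% intervals of the 4 levels did not overlap. Phenformin stood at 1.25 times control (1.21 to 1.29), poly I:C at 0.620 times (0.598 to 0.643) and the combination at 0.486 times (0.466 to 0.506). In the monocyte gate Slc7a2 was at 99.3, 166, 70.4 and 34.9 CPM. Without its macrophage-gate cells it was at 40.7, 31.7, 29.5 and 10.2 CPM, from 56, 38, 42 and 12 UMIs, where the phenformin to control ratio was 0.779 with an interval that held 1 (0.502 to 1.197), and the combination was the lowest. T cell gate cells had 3.82, 3.74, 4.15 and 1.32 CPM. They are chosen by at least 2 Cd3 UMIs and no Csf1r, Cd68 or Adgre1 UMI, so their levels may understate the free RNA of macrophages in other cells.

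Arg1 was about as low with the combination as with poly I:C alone. Macrophage-gate cells had 413, 482, 223 and 217 CPM. The intervals of the poly I:C library (219 to 228) and of the combination library (212 to 222) overlapped, and both were far below control (404 to 421). Set against control, phenformin was at 1.17 times (1.137 to 1.198), poly I:C at 0.541 times (0.525 to 0.557) and the combination at 0.525 times (0.509 to 0.542). Arg1 was detected in 29.4%, 39.0%, 29.8% and 26.4% of macrophage-gate cells, whose median depth was 9337, 12108, 12136 and 10361 UMIs. In T cell gate cells (median 6013, 6658, 5475 and 4598 UMIs) it was detected in 3.27%, 3.45%, 1.19% and 1.96%. With each cell thinned to 1000 UMIs the macrophage-gate shares were 15.7%, 19%, 10.5% and 10.4%, and the T cell shares 0.603%, 0.908%, 0.357% and 0.482%. At equal depth the shares thus followed the CPM, which the unthinned shares did not for poly I:C.

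A minority of cells carried most of the Arg1 RNA. The top 10% of macrophage-gate cells held 82.7%, 73.2%, 80.2% and 84.0% of the Arg1 UMIs of the gate, and the highest cell had 141, 168, 160 and 119. Cells with at least 50 Arg1 UMIs numbered 47, 87, 22 and 14. Such cells were fewest in both poly I:C libraries although these held more macrophage-gate cells. Leaving the 10 highest cells out of each library gave ratios to control of 1.22, 0.546 and 0.529.

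Because C1q-rich cells filled more of the gate after poly I:C, Arg1 was also read within bands of C1q. In cells with at least 50 C1q UMIs it was at 538, 484, 246 and 235 CPM, in cells with 5 to 49 at 365, 643, 260 and 266 CPM, and in cells with under 5 at 294, 425, 137 and 120 CPM. Both poly I:C libraries were below control in each of the bands. The phenformin library was above control with under 5 C1q UMIs (ratio 1.44, 1.38 to 1.51) and with 5 to 49 (1.76, 1.65 to 1.88), and below it with at least 50 (0.899, 0.868 to 0.932).

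In monocyte-gate cells Arg1 was at 263, 312, 82.6 and 65.4 CPM. In the whole monocyte gate, T cells and plasmacytoid dendritic cells included, it was at 140, 191, 46.9 and 29.5 CPM. Without macrophage-gate cells, T cells and plasmacytoid dendritic cells it was at 60.3, 29.2, 7.71 and 94.8 CPM, and there the phenformin library was below control (0.484) and the combination library above it (1.57). These levels came from 83, 35, 11 and 112 Arg1 UMIs, of which 1 cell held 45, 13, 5 and 91, so no order of the treatments is read for monocytes outside the macrophage gate.

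Arg2, the mitochondrial arginase, was low in macrophage-gate cells, at 20.1, 22.6, 33.8 and 22.1 CPM. Only the poly I:C library stood apart, at 1.68 times control (1.51 to 1.87). In neutrophil-gate cells free of macrophage and T cell UMIs it was at 324, 400, 175 and 449 CPM, from 83, 104, 49 and 131 UMIs. There the poly I:C library was at 0.539 times control (0.371 to 0.777), and the combination library was 2.57 times the poly I:C library (1.84 to 3.65). In the 176, 143, 115 and 184 neutrophil-gate cells that passed no other gate, Arg2 was at 444, 437, 362 and 449 CPM, and neither interval excluded 1: poly I:C was at 0.815 times control (0.621 to 1.06) and the combination at 1.24 times poly I:C (0.959 to 1.62). The summed dendritic cell marker level of the first set was 58.5, 57.7, 488 and 41.2 CPM, and that of the tumour keratins and Epcam 995, 2170, 1540 and 30.9 CPM. In the second set these were 72.1, 9.23, 24.6 and 22.0 CPM, and 36.0, 15.4, 49.3 and 34.2 CPM. The part of these other cells in the Arg2 ratios was not tested. Thinned to 1000 UMIs, Arg2 was found in 32.0%, 36.8%, 22.8% and 32.0% of the cells of the first set, with intervals that overlap (poly I:C 14.1% to 33.6%, control 23.0% to 42.1%). Arg1 had 6, 2, 2 and 4 UMIs in that set, with at most 1 UMI in any cell.

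In the neutrophil gate as a whole Arg1 was at 66.2, 236, 148 and 81.5 CPM, and 49, 173, 248 and 101 of its 56, 175, 251 and 105 UMIs were in cells that also had a Csf1r, Cd68 or Adgre1 UMI. Slc7a2 showed the same split, with 2, 1, 0 and 1 UMIs in the neutrophil-gate cells free of macrophage and T cell UMIs. The 0 of 280526 UMIs with poly I:C allows up to 10.7 CPM. Nos2 had 9, 3, 15 and 30 UMIs there, or 35.1, 11.5, 53.5 and 103 CPM, and was detected in 5.41%, 2.02%, 7.32% and 11.2% of the cells. The combination library was the highest for Nos2 in these neutrophil-gate cells, at 2.93 times control with a wide interval (1.36 to 7.02). In the 176, 143, 115 and 184 neutrophil-gate cells that passed no other gate, Nos2 was at 27.7, 33.8, 78.1 and 102.5 CPM. The combination was again the highest, but phenformin was at 1.22 times control there, against 0.329 times in the first set. The place of phenformin thus depends on the choice of cells. In the T cell gate of the same libraries Nos2 was at 2.13, 1.22, 2.36 and 0.882 CPM.

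Nos2 was highest with poly I:C alone and lowest with the combination. In macrophage-gate cells it was at 132, 154, 186 and 92.9 CPM, and the intervals of the 4 levels did not overlap. Relative to control the phenformin library was at 1.17 (1.12 to 1.22), the poly I:C library at 1.41 (1.35 to 1.47) and the combination library at 0.704 (0.669 to 0.741). The combination library had 0.499 times the Nos2 level of the poly I:C library (0.478 to 0.521). Among macrophage-gate cells thinned to 1000 UMIs the share with Nos2 was 8.34%, 9.99%, 11.7% and 6.18%, against 0.226%, 0.165%, 0.179% and 0.0402% of T cell gate cells.

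The ratio of poly I:C to control differed between bands of C1q, and did not go 1 way along them. With under 5 C1q UMIs, Nos2 was at 94.95, 114, 200 and 85.1 CPM, a poly I:C to control ratio of 2.10 (1.94 to 2.29). With 5 to 49, it was at 203, 191, 178 and 89.2 CPM, a ratio of 0.875 (0.783 to 0.977). With at least 50, it was at 139, 176, 183 and 95.1 CPM, a ratio of 1.31 (1.24 to 1.40). In each of the 3 bands the combination library was below the poly I:C library, at 0.426, 0.502 and 0.520 times its level. Monocyte-gate cells, most of which are also macrophage-gate cells with under 5 C1q UMIs, had 74.1, 94.0, 193 and 77.0 CPM. Without their macrophage-gate cells Nos2 was at 22.5, 34.2, 44.9 and 30.5 CPM, from 31, 41, 64 and 36 UMIs, and poly I:C was at 1.99 times control (1.28 to 3.17). In the whole monocyte gate Nos2 was at 42.4, 56.8, 109 and 33.9 CPM, and the combination library, at 1.04 times control without the T cell and plasmacytoid cells, was below control with them.

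Ass1, the enzyme that begins arginine resynthesis, was higher with either agent alone and close to control with both. Its macrophage-gate level was 135, 189, 191 and 148 CPM. The phenformin and poly I:C libraries had overlapping intervals (184 to 193 and 186 to 195), both above control, at ratios of 1.39 and 1.41, and the combination library was at 1.09 (1.04 to 1.14). In monocyte-gate cells Ass1 was at 143, 197, 306 and 207 CPM, and poly I:C was at 2.14 times control (1.96 to 2.35). Without their macrophage-gate cells it was at 89.4, 102, 107 and 113 CPM, with intervals of all 3 ratios to control that held 1.

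Odc1, the polyamine enzyme downstream of arginase, was mostly a gene of other cells. It was at 212, 214, 160 and 160 CPM in the T cell gate and at 178, 208, 201 and 180 CPM in keratin tumour cells. Macrophage-gate cells had 79.4, 66.1, 72.4 and 61.3 CPM, highest in control and lowest with the combination (ratio 0.773, 0.724 to 0.824). In T cells both poly I:C libraries were at about the same ratio to control (0.752 and 0.754), and phenformin was at 1.01 (0.953 to 1.07). The Odc1 level of 127 CPM in phenformin neutrophil-gate cells rested on 33 UMIs, 29 of them in 1 cell.

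How many of the 6 genes differed by at least 1.5-fold, with an interval that excludes 1, was read against all genes with at least 50 CPM and 30 UMIs in the higher library of the macrophage gate. Arg2 did not reach that level, so 5 of the 6 were compared. Phenformin against control gave no member higher and none lower, where 0.49% and 0.261% of 3063 genes were higher and lower. With poly I:C against control none of the 5 was higher (background 3.31% of 3138 genes) and 2 were lower, Arg1 and Slc7a2 (background 4.3%). The combination against control also had 0 higher (4.3% of 3183 genes) and 2 lower, again Arg1 and Slc7a2 (5.03%). Between the combination and poly I:C none was higher (1.06% of 3029 genes) and 1 was lower, Nos2 (1.52%). Between the combination and phenformin none was higher (3.69% of 3117 genes) and 3 were lower, Arg1, Nos2 and Slc7a2 (4.49%). In the order of these 5 comparisons the median ratio of the 5 members was 1.17, 0.912, 0.704, 0.783 and 0.603, beside 0.986, 0.948, 0.978, 1.03 and 0.992 over all genes compared. The comparisons share libraries and are not independent of each other.

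The 4 libraries form a 2 by 2 design, so the combination can be set against the product of the ratios of the single agents. For Nos2 that product gives 217 CPM, and 92.9 CPM was measured, a ratio of 0.427 (0.401 to 0.455). The same ratio was 0.555 (0.524 to 0.588) for Ass1, 0.584 (0.503 to 0.679) for Arg2, 0.628 (0.596 to 0.661) for Slc7a2 and 0.832 (0.799 to 0.867) for Arg1. It was 1.02 (0.933 to 1.11) for Odc1. Intervals that exclude 1 were common among the 3231 genes abundant enough: 43% lay above 1 and 25.4% below, with a median ratio of 1.05. At least 1.5-fold below 1 were 3.25% of these genes, and 3 of the 5 members among them, Nos2, Ass1 and Slc7a2, while 2.51% and no member were at least 1.5-fold above. Within bands of C1q the Nos2 ratio was 0.354, 0.534 and 0.410 from the poorest to the richest band, and the Arg1 ratio 0.606, 0.582 and 1.06 (1.01 to 1.12). Phenformin went with 1.17 times more Nos2 on a saline background and with 0.499 times as much on a poly I:C background.

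**Figure D2:**
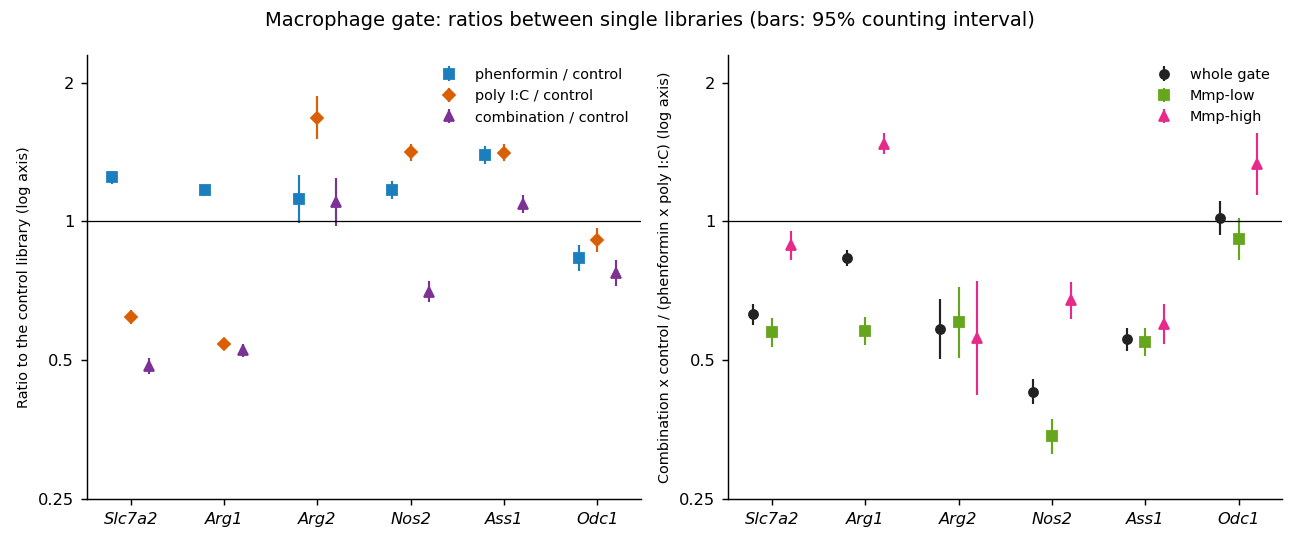
Left, ratio of each treated library to control for the 6 genes in macrophage-gate cells (log axis); right, combination times control over phenformin times poly I:C (log axis), in the whole gate and in its Mmp-low and Mmp-high parts; bars are 95% counting intervals. In the whole gate Nos2 lies furthest below 1 on the right (0.427), and Arg1 lies below 1 in Mmp-low cells (0.578) and above 1 in Mmp-high cells (1.47).

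The macrophage gate was split by Mmp12 and Mmp13, elastase and collagenase genes of matrix-degrading macrophages, at 5 UMIs of both together. Mmp-high cells were 23.6%, 26.0%, 24.4% and 16.1% of the gate, so the combination library had the smallest part. Arg1 was at 864, 892, 444 and 677 CPM in Mmp-high cells and at 198, 273, 117 and 93.8 CPM in Mmp-low cells. Every library had more Arg1 in the Mmp-high part, and the order of the treatments differed between the parts. In Mmp-high cells the combination library was 1.52 times the poly I:C library (1.46 to 1.58), and in Mmp-low cells 0.800 times (0.757 to 0.845). Among the latter the combination library was lower only in cells with no Mmp UMI, at 69.4 against 96.7 CPM; in cells with 1 to 4 it had 188 CPM (176 to 200) and the poly I:C library 169 CPM (160 to 179). Cells with no Mmp UMI were 57.2% of the macrophage gate with poly I:C and 69.3% with the combination. Over the whole gate the same 2 libraries had near-equal Arg1 levels. With the parts weighted as in control, the Arg1 ratio of the combination to control was 0.683 in place of 0.525, and that of poly I:C stayed at 0.540.

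Nos2 was at 230, 223, 261 and 170 CPM in Mmp-high cells and at 84.9, 119, 151 and 72.1 CPM in Mmp-low cells. The poly I:C to control ratio was 1.13 (1.07 to 1.201) in the former and 1.77 (1.66 to 1.89) in the latter. In both parts the combination was below poly I:C, at 0.654 and 0.479. For Slc7a2 the Mmp-high levels were 462, 513, 256 and 251 CPM and the Mmp-low levels 155, 217, 111 and 89.2 CPM. Poly I:C libraries were below the saline libraries in both parts.

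Along the whole range of Mmp12 and Mmp13 counts, Arg1 went from 178, 226, 96.7 and 69.4 CPM in cells with none to 1653, 1519, 935 and 1331 CPM in cells with at least 100. The cells with at least 100 numbered only 80, 94, 73 and 64. Across the same range Nos2 went from 70.5, 115, 134 and 64.9 CPM to 360, 349, 276 and 234 CPM. Deeper cells pass a UMI threshold more easily, and Mmp-high cells were deeper (median 13824, 16322, 17043 and 13789 UMIs) than Mmp-low cells (8479, 10903, 11014 and 9796); CPM is scaled to the summed depth. Just outside and inside the split, cells with 4 Mmp UMIs had 276, 624, 183 and 285 CPM of Arg1, and cells with 5 had 426, 738, 248 and 196 CPM, from 29 to 51 cells per library. Just under the macrophage gate, cells with 2 gate UMIs had 104, 175, 30.8 and 122 CPM of Arg1, and those with 3 had 155, 194, 66.6 and 130 CPM.

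**Figure D3:**
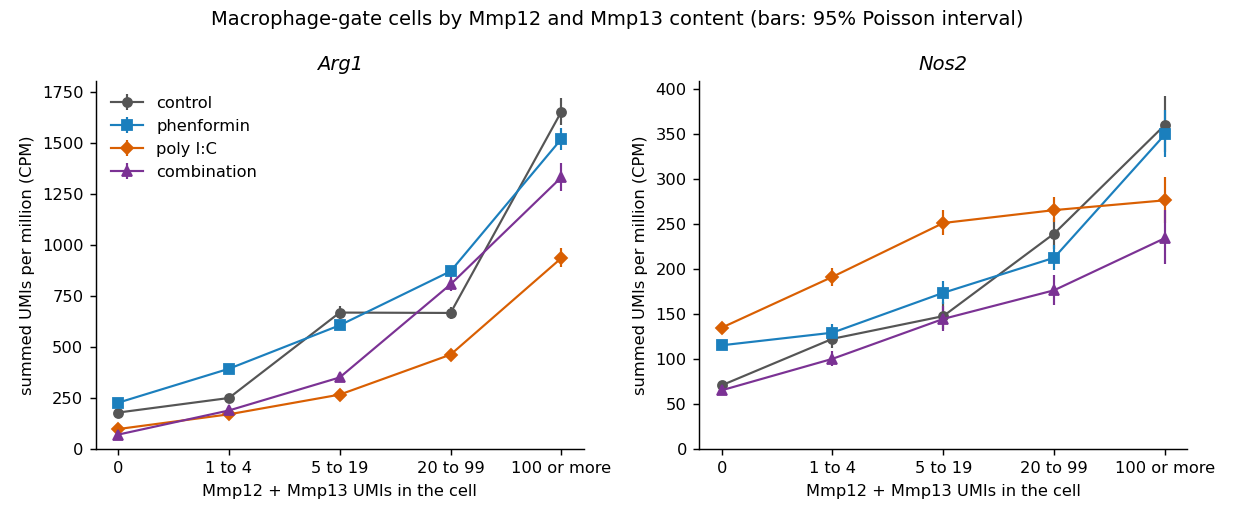
Arg1 (left) and Nos2 (right) in macrophage-gate cells binned by their summed Mmp12 and Mmp13 UMIs, in CPM, 1 line per library, with 95% Poisson intervals. Arg1 is lowest in the bin without Mmp UMIs and highest in the bin with at least 100, where the poly I:C library (935 CPM) is the lowest.

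Arg1 and Nos2, often used as opposite labels, were found in the same cells. Without thinning, 15.3%, 20.6%, 16.9% and 10.4% of macrophage-gate cells had at least 1 UMI of both. With cells thinned to 3000 UMIs, which left out 88, 66, 72 and 114 shallower cells, the shares were 8.29%, 11.4%, 7.05% and 4.54% (161, 250, 181 and 120 cells). The product of the single shares, which is the value if detection of one said nothing of the other, was 3.76%, 5.64%, 4.42% and 2.42%. Cells with both were thus more frequent than that product in every library, and the lower bounds of their intervals (7.10%, 10.1%, 6.09% and 3.78%) lay above it. Poly I:C ranked above control without thinning and below it with thinning, so no order between these 2 is read.

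Among thinned macrophage-gate cells with Nos2, 50.8%, 57.1%, 31.3% and 33.3% had Arg1, and among those without Nos2, 17.6%, 21.2%, 16.2% and 15.4%. In the whole gate the share of Nos2 cells with Arg1 was lower in both poly I:C libraries than in both saline libraries. No interval of the first pair reached those of the second. This also held within Mmp-low cells (poly I:C 18.23% to 27.03%, combination 16.57% to 27.21%, control 32.64% to 47.48%, phenformin 42.7% to 55.35%). Within Mmp-high cells the shares were 64.75%, 68.11%, 46.48% and 58.77%. There the combination interval (49.17% to 67.91%) overlapped that of control (56.2% to 72.66%). With at least 3 UMIs of each gene required, and no thinning, 7.09%, 11.2%, 8.14% and 4.24% of macrophage-gate cells had both. In the T cell gate 1, 1, 0 and 2 cells had at least 1 UMI of both, of 1345, 1218, 1686 and 2503; the 0 allows a share of up to 0.178%. Within Mmp-high cells the thinned share with both was 19.1%, 21.6%, 15.5% and 15.2% against products of 14.7%, 15.8%, 13.9% and 13.01%; the intervals of the poly I:C (12.8% to 18.5%) and combination (12% to 18.9%) libraries held the product. Within Mmp-low cells it was 4.83%, 7.66%, 4.25% and 2.40% against 1.75%, 3.22%, 2.34% and 1.26%, above the product in every library.

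**Figure D4:**
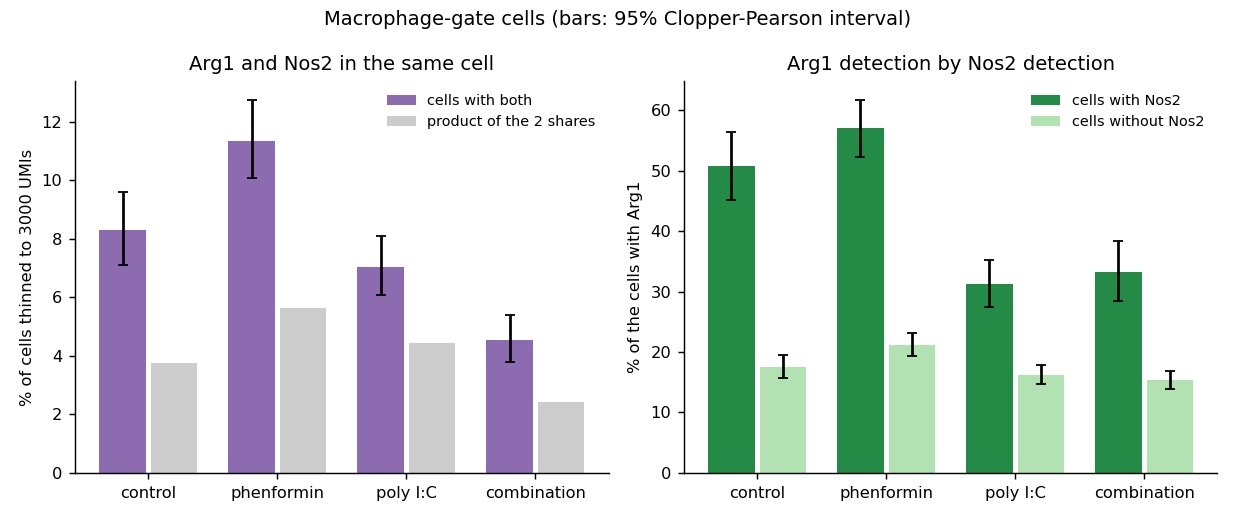
Macrophage-gate cells thinned to 3000 UMIs: left, percent of cells with at least 1 UMI of both Arg1 and Nos2 beside the product of the single shares; right, percent of cells with Arg1 among those with and without Nos2; bars are Clopper-Pearson 95% intervals. Cells with both (4.54% to 11.4%) exceed the product in each library.

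Cells with both genes carried more RNA of hypoxia and glycolysis genes than cells with neither. Cells with both were not compared with cells with Arg1 alone or Nos2 alone. The classes were made at 3000 UMIs per cell, and a gene was counted when it was at least 1.5-fold apart, with an interval that excludes 1, in each of the 4 libraries. Of the hypoxia and glycolysis list, 12 of 16 genes were abundant enough and 10 were higher in cells with both: Vegfa, the angiogenic growth factor, Slc2a1, a glucose transporter, Ero1l, Ldha, Bnip3, Ndrg1, Hilpda, Aldoa, Eno1 and Mif. The background was 3.64% of 2552 genes. Vegfa was 2.51, 2.18, 2.05 and 3.59 times as high, and Bnip3, a mitophagy receptor, 5.11, 4.29, 4.08 and 5.84 times. The median ratio of the 12 genes was 2.11, 2.19, 1.85 and 2.52. Before thinning, cells with both had a median of 10724, 12969, 16308 and 13252 UMIs, and cells with neither 9305, 11887, 11620 and 10182.

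By the same count, 10 of the 12 were higher inside the Mmp-low part (lowest ratio of the 12 genes 1.16, median 2.19). Within Mmp-high cells 5 of 12 were, Slc2a1, Ero1l, Bnip3, Hilpda and Mif, and 8 had an interval above 1 in every library (lowest 0.989, median 1.73). Of the cells with both genes, 55.9%, 50.4%, 54.7% and 55.8% were Mmp-high, against 14.0%, 16.8%, 15.5% and 8.89% of the cells with neither. Slc7a2 was 6.39, 5.85, 4.72 and 7.38 times as high in cells with both, and Ass1 2.10, 1.59, 1.32 and 1.44 times. Of 4 NF-kB cytokine genes compared, 1 was higher in cells with both in every library and 0 were lower (background 3.64% and 2.66%). It was Il1b, the inflammatory cytokine (3.32, 2.39, 1.90 and 2.36 times). The median ratio of the 4 was 1.265, 1.275, 1.44 and 1.33.

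Of 7 alternative activation genes compared, 2 were lower in cells with both in every library, Retnla and Clec10a (background 2.66%), and 1 was higher, the chemokine gene Ccl24 (5.22, 3.46, 4.97 and 8.63 times). The median ratio of the 7 was 1.17, 1.14, 0.814 and 0.590, above 1 in the saline libraries and below it in the others. Clec10a was at 0.323, 0.237, 0.363 and 0.205 times its level in cells with neither. Of 13 interferon gamma response genes compared, 0 were higher and 0 lower in every library. Cxcl9, an interferon gamma target, was at 1.04, 1.02, 1.29 and 1.32 times.

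**Figure D5:**
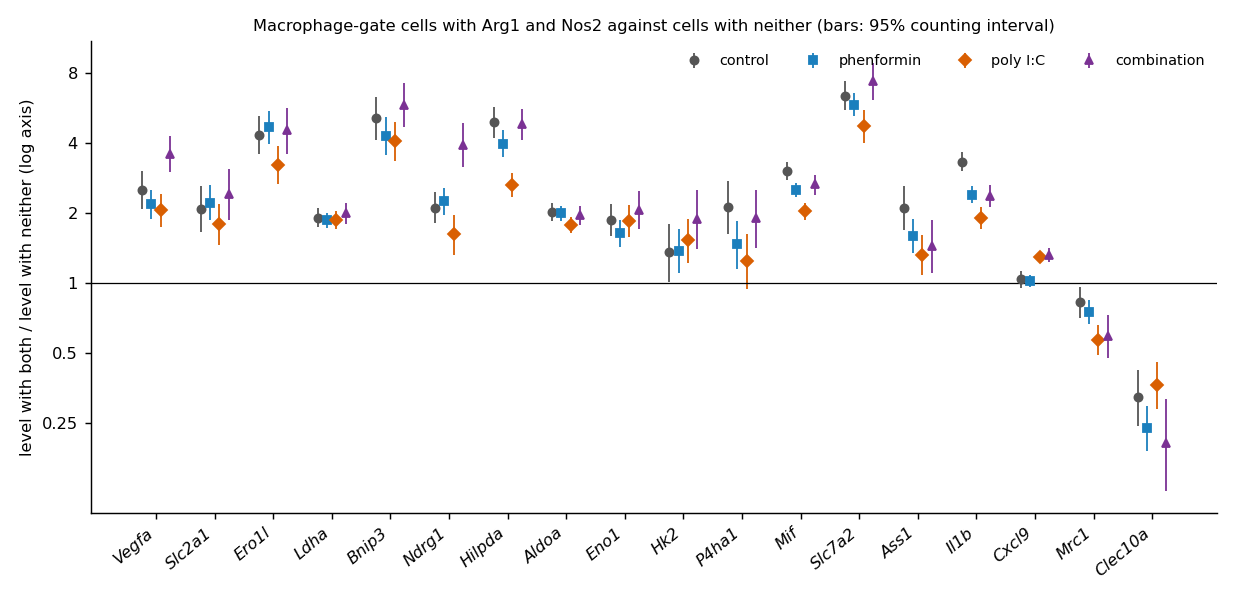
Level in macrophage-gate cells with Arg1 and Nos2 over the level in cells with neither (log axis), for the 12 hypoxia and glycolysis genes compared and 6 other genes, 1 marker per library, with 95% counting intervals, all cells thinned to 3000 UMIs. Of the hypoxia and glycolysis genes 10, and also Slc7a2 and Il1b, lie above 1.5 in all libraries, and Clec10a lies below 0.5.

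Cells with Arg1 alone differed from cells with Nos2 alone in fewer genes. These classes were smaller, with 286, 374, 323 and 351 cells and 156, 188, 398 and 240 cells, against 1339, 1390, 1667 and 1934 cells with neither. Mmp-high cells were 50.35%, 44.1%, 51.7% and 43.9% of those with Arg1 alone. They were 31.4%, 31.4%, 28.6% and 19.6% of those with Nos2 alone. The part of this difference in the ratios below was not tested. The list genes higher with Arg1 alone in all libraries were 1 of 6 alternative activation genes, Mrc1, the mannose receptor (2.57, 2.48, 1.75 and 2.52 times; background 0.951% of 2628 genes). The median ratio of the 6 was 1.16, 1.83, 0.964 and 1.44. Lower with Arg1 alone was 1 of 13 interferon gamma response genes, Cxcl9 (0.527, 0.540, 0.525 and 0.398 times). Of 5 NF-kB cytokine genes compared 1 was lower, Il1b (0.401, 0.520, 0.313 and 0.240 times). Of all genes 1.33% were lower. No gene of the hypoxia and glycolysis list was apart in all 4 libraries. Ass1 was at 0.815, 0.553, 0.538 and 0.455 times, with an interval that held 1 in control (0.605 to 1.10). Slc7a2 was at 0.830, 0.874, 0.674 and 0.589 times, with an interval that held 1 with phenformin (0.753 to 1.02).

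Over 29 sums of cells (cells that pass only 1 gate, by gate and library, where at least 50 cells did), the genes whose log level was most like that of Arg1 among 5559 included F7 (Pearson r 0.927), Trem2 (0.926), Dpys (0.925) and Ocstamp (0.923). The 5 most like Nos2 were F7 (0.936), Cd68 (0.929), Clec4a2 (0.926), Dpep2 (0.924) and Tpp1 (0.922). Cd68 is one of the genes of the macrophage gate itself. Slc7a2 ranked 14 in likeness to Arg1 (r 0.895) and Nos2 ranked 76 (0.848). Arg2 (0.195) and Odc1 (-0.292) did not follow Arg1. These correlations describe differences between kinds of cell; the sums of a library share its depth and treatment, and no p is given.

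F7, coagulation factor VII, first for both genes, was at 215, 170, 117 and 111 CPM in Mmp-high cells, at 51.8, 39.8, 36.6 and 25.8 CPM in Mmp-low cells, and at 0.621, 0.435, 0.407 and 0.819 CPM in T cells.

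Of 54 further genes of arginine transport, the nitric oxide cycle, the urea cycle, proline, polyamine and creatine metabolism and arginine methylation, 14 or 15 were abundant enough in macrophage-gate cells, and few were apart by 1.5-fold. With phenformin against control 0 of 14 were higher or lower (0.49% and 0.261% of all genes), and the widest apart was Slc3a2, a heavy chain of amino acid transporters, at 276 against 228 CPM (ratio 1.21). Poly I:C gave 0 higher (3.31% of all genes) and 1 lower of 15, beside 4.3% of all genes: Gatm, which takes the amidino group of arginine for creatine synthesis, at 605 against 1190 CPM (0.508, 0.499 to 0.517). Gatm was at 1037 CPM with phenformin and 946 CPM with the combination, 1.56 times the poly I:C level, the only one of 15 higher in that comparison, where 0 were lower (1.06% and 1.52% of all genes). The poly I:C library was the lowest for Gatm.

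Among polyamine genes, the combination was above control for Atp13a2, a lysosomal polyamine exporter (130 against 75.2 CPM, ratio 1.73), and below it for Atp13a3, a polyamine transporter (70.7 against 106 CPM, 0.665). These were 1 higher and 1 lower of the 15 genes, beside 4.3% and 5.03% of all genes. Against phenformin the combination had 1 higher, Atp13a2 (1.70), and 0 lower (3.69% and 4.49% of all genes). Counts of 0 or 1 in 15 are near these shares and are no result about the list. Azin1, the antizyme inhibitor that protects Odc1, was at 117, 115, 91.2 and 79.9 CPM, and Smox, spermine oxidase, at 129, 119, 126 and 93.7 CPM. Both were lowest with the combination. The median ratio of the pathway list was 0.984, 0.899, 0.961, 1.06 and 0.959 in the 5 comparisons, in the order given for the members. The urea cycle genes Cps1 and Otc, and Agmat, which encodes agmatinase, had at most 2 UMIs in macrophage-gate cells of every library.

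Known signals upstream of these genes were read in the same libraries, and some of a list of 13 regulators and ligands are given here. Hif1a, the hypoxia-inducible factor, was at 558, 600, 410 and 323 CPM in Mmp-low and at 639, 707, 434 and 348 CPM in Mmp-high macrophage-gate cells, lower in both poly I:C libraries and lowest with the combination. Il13, a T cell cytokine that induces Arg1, was at 43.8, 25.7, 16.0 and 5.61 CPM in the T cell gate (493, 295, 196 and 89 UMIs), and was found in 2.23%, 2.55%, 0.83% and 0.28% of its cells, so few cells carry these levels. Ifng, which induces Nos2, was at 57.6, 86.0, 66.5 and 65.8 CPM there. Il4ra, the shared receptor chain of interleukin 4 and interleukin 13, was at 188, 202, 175 and 161 CPM in Mmp-low cells. Cebpb, of the same list, was at 1863, 1897, 1996 and 1782 CPM in Mmp-low cells and at 1459, 1469, 1681 and 1436 CPM in Mmp-high cells. The part of any of these in the levels of Arg1 or Nos2 was not tested.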

How the data were processed

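Single-cell RNA was measured in 4 libraries, 1 per treatment. The deposited values are raw UMI counts per gene and barcode; the authors made them with Cell Ranger 3.1.0, per the submitters' processing notes, which name mm10 and GRCm38. The filter kept barcodes of 200 or more genes whose mitochondrial share of UMIs was below 20%, and gates were set on raw UMIs. No doublet caller was run; cells with markers of another lineage were left out as an alternative instead.

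Within each gate, UMI counts were added up and scaled to CPM. Levels have exact Poisson intervals, shares Clopper-Pearson intervals and ratios of 2 libraries exact conditional intervals, all at 95% and for counting error only. A level for 0 counts is limited by 3 counts. With 1 library per group no p-value was computed. Thinning drew 3000 or 1000 UMIs per cell. Likeness is Pearson's r of log2(CPM + 5). Named genes are the members, up to 4 pathway genes per comparison with the largest ratio, and the 5 most like Arg1 and the 5 most like Nos2, of which 1 is not reported here; Gatm, Azin1 and Smox levels follow from that rule, and the class and regulator genes come from lists. The 6 genes, the gates and the lists were chosen with earlier results of these data known. The ratio and interval code was checked on simulated data. Loci and transcripts are from GENCODE vM21. Software was Python 3.11.15, numpy 2.4.6, scipy 1.17.1, pandas 2.3.3, Biopython 1.88, matplotlib 3.10.9, R 4.3.3 and edgeR 4.0.16, used for TMM factors only. Alternatives changed the cell filter, gates, split, scaling, depth, cell weights, background and minimum level.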

Additional observations from a re-analysis of the deposited data

Results flagged for a closer look

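Arg1 in the combination library was 0.800 times the poly I:C library in Mmp-low macrophage-gate cells and 1.52 times in Mmp-high cells, opposite directions in the 2 parts; within Mmp-low cells only those with no Mmp UMI were lower (69.4 against 96.7 CPM), and those with 1 to 4 were at 188 against 169 CPM. Odc1 was at 0.856 times in Mmp-low and 1.16 times in Mmp-high cells, for the combination over phenformin. Arg2 with poly I:C was 1.68 times control in macrophage-gate cells and 0.539 times in neutrophil-gate cells without macrophage or T cell UMIs. For the combination over poly I:C, Arg2 was at 0.655 times in macrophage-gate cells and 2.57 times in those neutrophil-gate cells. Among neutrophil-gate cells of no other gate the same ratios were 0.815 (0.621 to 1.06) and 1.24 (0.959 to 1.62). They lay on the same sides of 1 as in the first neutrophil set, but both intervals held 1. The size of the Arg2 differences in neutrophil-gate cells, and whether an interval excludes 1, thus rest on the choice of cells. Each pair stands out because the ratios lie on opposite sides of 1; with 1 library per treatment none of these differences was tested, and the neutrophil values rest on 49 to 131 Arg2 UMIs.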

How the results depend on the processing

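No paired analysis was possible because each treatment has 1 sample. Of the macrophage-gate ratios of Arg1 and Nos2 to control, the shares of cells with both genes and the counts of members called, 64 values under an alternative stayed within the counting interval or count and 54 moved; no macrophage-gate ratio changed direction. Some alternatives were chosen after seeing the data: the 10 highest cells left out, 3 UMIs of each gene for cells with both, and the purer monocyte, neutrophil and migratory dendritic gates. The cause of the moves was not tested. The Arg1 ratio of phenformin to control was 1.22 without the 10 highest cells, 1.217 with TMM scaling, 1.055 with 5 C1q UMIs added to the gate, 1.218 and 1.125 with the gate at 2 and 6 UMIs, 1.25 as a mean over cells and 1.24 with thinning. For poly I:C the Arg1 ratio was 0.575 with TMM, 0.504 with C1q, 0.566 and 0.511 at gates of 2 and 6, 0.502 as a mean over cells, 0.561 without mixed droplets and 0.504 with thinning. For the combination it was 0.547 without monocyte-gate and neutrophil-gate cells, 0.484 with C1q, and 0.556 and 0.488 at gates of 2 and 6. The Nos2 ratio of poly I:C was 1.52 without the 10 highest cells, 1.501 with TMM, 1.30 without monocyte-gate and neutrophil-gate cells, 1.17 with C1q, 1.48 and 1.32 at gates of 2 and 6, and 1.35 with thinning, so that it passed 1.5-fold under the first 2 of these. That of phenformin was 1.11 at a gate of 6, 1.27 as a mean over cells and 1.28 with thinning, and that of the combination was 0.605 with C1q.

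Cells with both genes were, for control, phenformin, poly I:C and combination, 7.09%, 11.2%, 8.14% and 4.24% at 3 UMIs, 17.3%, 23.2%, 19.5% and 11.9% without monocyte-gate and neutrophil-gate cells, 19.3%, 25.3%, 19.8% and 12.45% with C1q, 19.7%, 24.2%, 19.2% and 11.8% at a gate of 6, and 8.29%, 11.4%, 7.05% and 4.54% thinned; control had 13.6% at a gate of 2. Under both looser minimums Arg2 was also called, which gave 1 member higher with poly I:C and 2 lower for the combination over poly I:C. With no minimum beyond 1 UMI the background moved by over 1.5 times for phenformin over control (1.13% higher and 4.26% lower), the combination over poly I:C (3.19% and 3.58%) and the combination over phenformin (6.85% higher). With 20 CPM and 10 UMIs it was 0.479% lower for phenformin over control. In the monocyte gate the Nos2 ratio of the combination turned from below 1 to 1.04 once T cell and plasmacytoid cells were left out. With macrophage-gate cells left out as well it was 1.35, the Arg1 ratio was 0.484 with phenformin and 1.57 with the combination, the Slc7a2 ratio 0.779 with phenformin and the Arg2 ratio 0.695 with poly I:C, each on the other side of 1 than in the whole gate. Depth limits Slc7a2 and Arg1 in neutrophil-gate cells, which had 0 to 6 UMIs.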

Other observations

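In migratory dendritic cells (161, 130, 97 and 87 cells in control, phenformin, poly I:C and combination), Slc7a2 was at 120, 168, 106 and 56.6 CPM, and Ass1 at 150, 224, 223 and 200 CPM. Odc1 was at 111, 103, 110 and 43.3 CPM there, at 0.389 times control with the combination (0.266 to 0.555). In the 61, 39, 48 and 50 of these cells that passed no other gate, Odc1 was at 56.2, 37.1, 68.9 and 42.0 CPM, from 27, 15, 26 and 13 UMIs, and the combination was at 0.747 times control with an interval that held 1 (0.354 to 1.498). Slc7a2 was at 85.3 CPM in control and 16.1 CPM with the combination in that purer set. Its phenformin level was 0.811 times control there, and its combination level 1.52 times poly I:C, both opposite in direction to the whole gate. For Ass1 the purer set had 129 CPM in control and 181 CPM with the combination, with phenformin at 1.38 times control. Endothelial cells had 288, 228, 160 and 142 CPM of Odc1, from 55, 54, 67 and 42 cells. Fibroblasts, of which there were 19, 14, 58 and 47, had 132, 149, 48.2 and 34.3 CPM of Slc7a2 and 300, 366, 250 and 273 CPM of Odc1. In keratin tumour cells Arg2 was at 6.61, 7.06, 9.40 and 13.2 CPM, 2.002 times control with the combination (1.55 to 2.60).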
